A study of Mus musculus with 4 samples.

Results

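A list of 40 genes of neural progenitors and neurons was followed in mouse E14 embryonic stem cells exposed for a short time to valproic acid (VPA), a branched fatty acid that inhibits histone deacetylases. They were chosen by symbol, as known markers of neural cells, and the rule that picks their probe sets uses no difference between the groups. Earlier results of these data were known when the list was made, so shares set beside all genes are descriptions only. Each gene was represented by the probe set with that single symbol and the highest mean over all arrays, and 40 of 40 had one, among 19938 genes represented in all. The untreated group held 2 arrays of E14 cells without drug, whose labels give 4 h. The VPA group held 2 arrays of E14 cells given 0.5 mM VPA for 4 h. In both groups the cells grew in medium with serum and leukemia inhibitory factor, over a feeder layer of primary embryonic fibroblasts stopped from dividing by mitomycin. E14 is a single cell line, no genetic change is named in the labels, and nothing says that the replicates came from separate cultures, so the p-values rest on the spread among these 4 arrays and that spread may be technical. In bulk RNA, fewer cells of a type and less RNA per cell cannot be told apart.

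Neural fate is set up in steps. Factors such as Sox1 and Pax6 mark the early neural plate and progenitors, the basic helix-loop-helix factors of the Neurog and Neurod families drive cells into neuronal differentiation, and Notch targets such as Hes5 hold progenitors back. Neurons then make their own tubulin, neurofilaments and microtubule regulators, and later the proteins that load and release synaptic vesicles. Outside the nervous system many of these neuronal genes are held down by REST, a repressor that binds the RE1 element and recruits histone deacetylases.

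Values are RMA log2 signals, so a difference of 1 is a doubling. All 8 markers of embryonic stem cells were bright, between 8.62 (Klf4) and 12.52 (Dppa5a) in untreated cells. The 5 measured glial markers lay between 2.89 and 3.76. Of the feeder fibroblast markers 15 of 16 were measured, from 2.18 (Lum) to 9.14 (Sparc). Their summed signal after taking antilogs was 977.7 and 1052 on the untreated arrays and 921.5 and 866.0 on the VPA arrays. Such a sum rests mostly on the brightest gene, Sparc, which differed by −0.26 ± 0.11. By gene, 11 of the 15 means were lower with VPA (73.3%, where 46.3% of represented genes were lower). The other 4 were higher, Thy1 most at 0.31 ± 0.12, and the median difference was −0.086. The part of these markers in the differences below was not tested. Replicates correlated over all probe sets with a Pearson's r of 0.991 (untreated) and 0.993 (VPA). The SD of the difference between 2 arrays over the 40 genes was 0.215 for the untreated pair, 0.171 for the VPA pair and 0.243 to 0.307 across the groups. Over all probe sets it was 0.311 for the untreated pair, 0.285 for the VPA pair and 0.297 to 0.361 across the groups. There, untreated replicate 1 was closer to VPA replicate 1 (0.297) and VPA replicate 2 (0.301) than to untreated replicate 2.

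No gene of the neural list passed the test, which does not show that the genes were unchanged: on simulated arrays of this number the same fit missed nearly all 2-fold changes, which are larger than any difference in the list. With limma over 35556 probe sets and Benjamini-Hochberg adjustment, 0 of the 40 were called at an adjusted p under 0.05 (smallest adjusted p = 0.462), where 0% of all probe sets were called. The synaptotagmin gene Syt11 stood highest with VPA at 1.67-fold, and the collapsin response mediator gene Crmp1 stood lowest at 1.39-fold below its untreated mean. At an unadjusted p under 0.05, 2 genes were higher (Syt11 and Rab3a) and 2 were lower (Pax6 and Crmp1), which is 5% each way, against 5.9% of represented genes higher and 2.71% lower. Together they are 4 of 40, where 8.61% of represented genes passed in either direction. The median log2 difference of the 40 was −0.0083, beside 0.015 over all represented genes. Means were higher with VPA for 19 (47.5%, where 53.7% of represented genes were higher) and lower for 21.

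**Figure D1:**
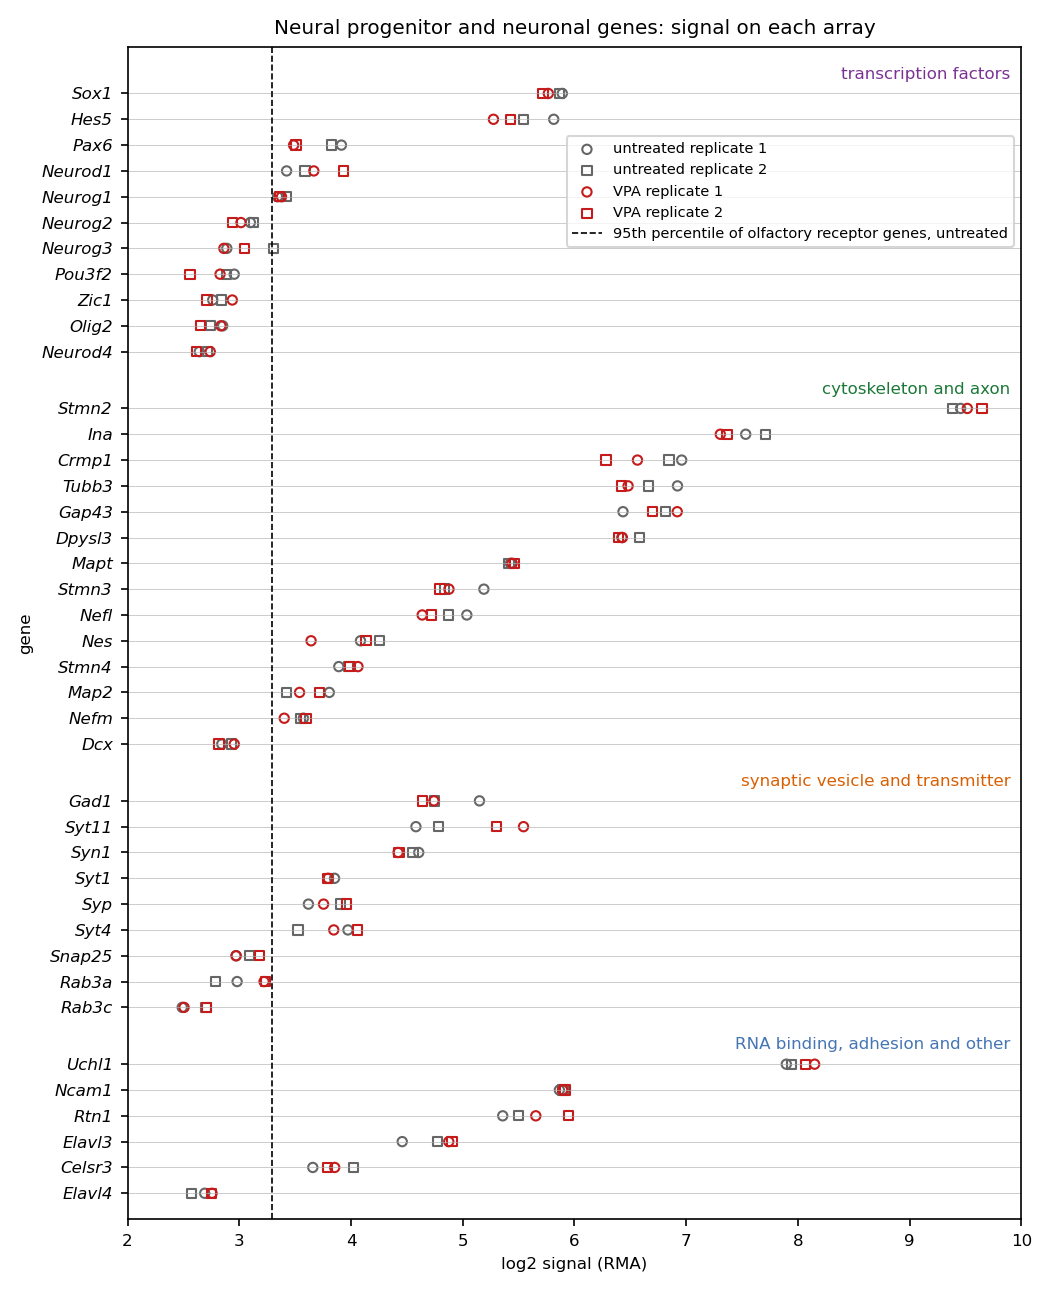
Log2 signal (x axis) of each of the 40 genes (y axis, by role) on each array; grey marks are untreated and red marks VPA arrays, circles replicate 1 and squares replicate 2. The dashed line is the 95th percentile of olfactory receptor genes in untreated cells, 3.30; Stmn2 is the brightest gene at 9.42, and most transcription factors lie at or left of the line.

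Untreated levels spread widely. Detection calls were not used here, so 1027 olfactory receptor genes, which stem cells are not known to need, served as a rough reference for dim signal. In untreated cells 95% of them lay at or below 3.30. Of the neural list 29 genes had a mean above that value and 11 did not: Neurog2, Neurog3, Neurod4, Olig2, Pou3f2, Zic1, Dcx, Snap25, Rab3a, Rab3c and Elavl4. Probe sets differ in how strongly they respond, so the line is no detection limit, and a signal does not rank transcripts between genes. By role, 5 of 11 transcription factors were above it, 13 of 14 cytoskeletal and axonal genes, 6 of 9 vesicle and transmitter genes and 5 of 6 of the rest. For the 11 dim genes a small difference says little about the transcript.

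None of the 11 transcription factors passed the test. Means were lower with VPA for 9 and higher for 2, with a median log2 difference of −0.14. Of the 9, Neurog1, Neurog3, Neurod4 and Olig2 turned sign with 1 array left out, and all but Neurog1 of these were among the dim genes. In 5 of the 11 factors both VPA arrays lay below both untreated arrays (45.5%), where 18.1% of represented genes did so. In 1 both lay above, where 24.1% did. Of the 5 lower ones, Neurog2 and Pou3f2 were among the dim genes. Only Pax6 of the 11 had an unadjusted p under 0.05 in limma. Of the 8 embryonic stem cell markers 4 also had both VPA arrays below both untreated arrays (50%) and 1 had both above. The pluripotency factor gene Nanog differed most, by −0.48 ± 0.14 (unadjusted p = 0.020, adjusted p = 0.503 in limma). The part of these markers in the neural values was not tested.

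Pax6, a paired-box factor of early neural and eye progenitors, read 3.91 and 3.82 on the untreated arrays and 3.49 and 3.51 on the VPA arrays. The groups did not overlap, and the arrays of each group lay within 0.1 of each other. The difference was −0.37 ± 0.11 (SE, n = 2 per group), with an unadjusted p of 0.018 and an adjusted p of 0.495 in limma. Hes5, a Notch-driven repressor that keeps progenitors undifferentiated, read 5.81 and 5.54 without drug and 5.28 and 5.43 with it. All VPA values were again below all untreated values, but the gap between the groups was smaller than that between the untreated arrays. Its difference was −0.33 ± 0.14 (unadjusted p = 0.072, adjusted p = 0.565 in limma). Sox1, the earliest neural plate marker among the Sox genes, read 5.89 and 5.86 against 5.77 and 5.72. Both VPA arrays were again the lower ones, with a difference of −0.14 ± 0.10 and a 95% interval from −0.41 to 0.13.

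The proneural factors did not move as one. Neurod1, which drives late steps of neuronal differentiation, read 3.42 and 3.59 on the untreated and 3.67 and 3.94 on the VPA arrays. It was the only transcription factor of the list with both VPA arrays above both untreated ones, at 0.30 ± 0.14 (adjusted p = 0.598 in limma). Neurod4 differed by −0.0022, Neurog1 by −0.014, Neurog2 by −0.14 and Neurog3 by −0.14, all at signals of 3.38 or less in untreated cells. Pou3f2, a POU factor of neural precursors, differed by −0.23 at a signal of 2.92, and its other probe set gave −0.11. Olig2, a factor of oligodendrocyte and motor neuron precursors, differed by −0.051 and Zic1, a zinc finger factor of the dorsal neural tube, by 0.022, both with overlapping groups.

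**Figure D2:**
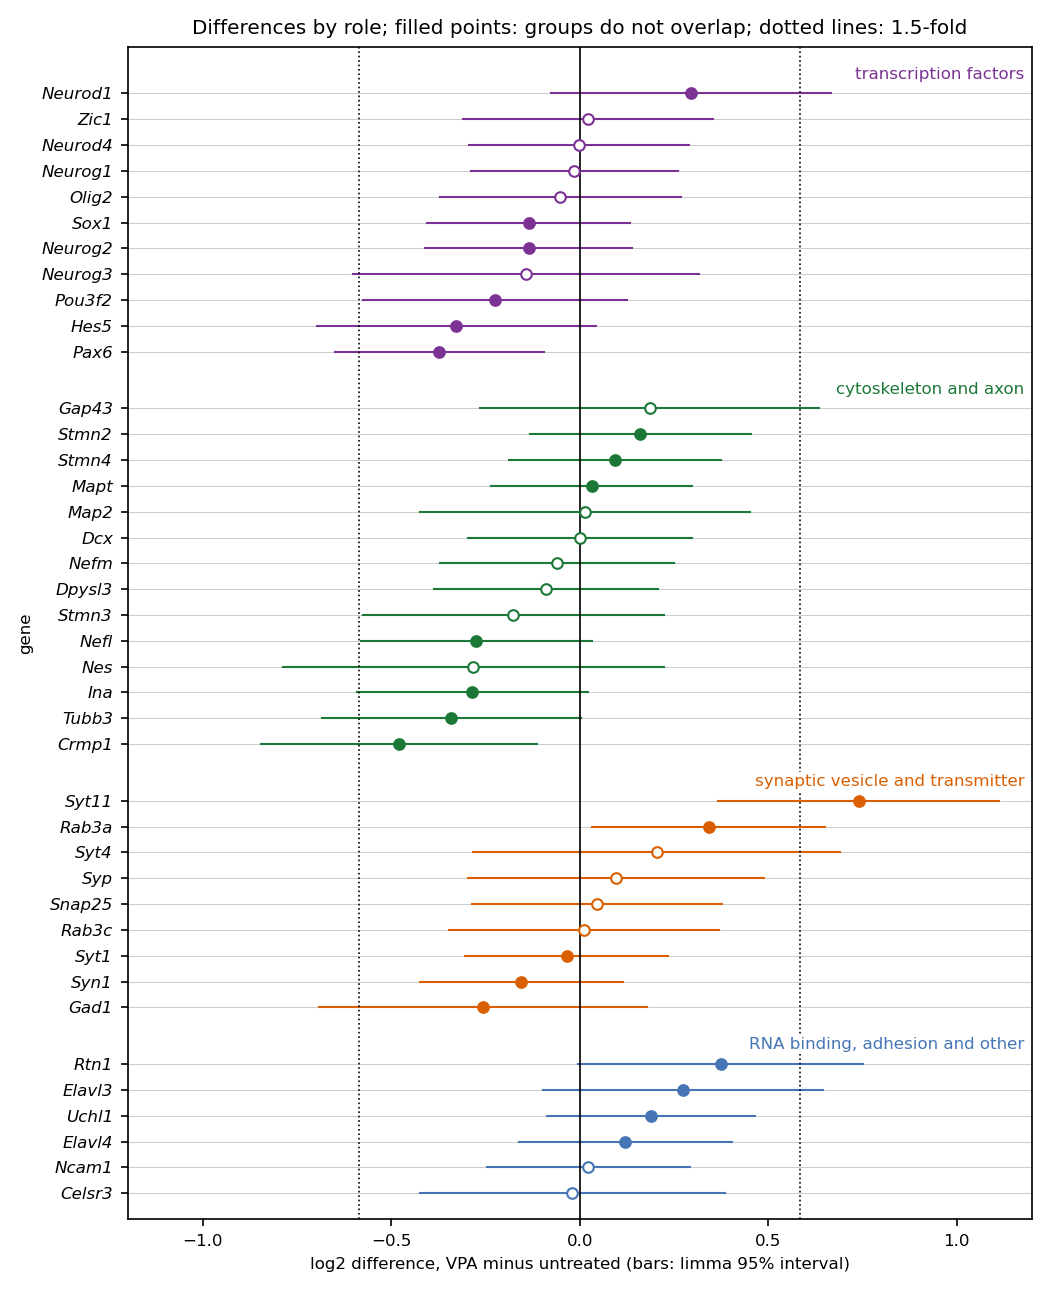
Log2 difference, VPA minus untreated (x axis), for each gene (y axis, by role), with the limma 95% interval as a bar. Filled points mark genes whose groups do not overlap and dotted lines 1.5-fold; Syt11 at 0.74 is the one point past a dotted line, and the intervals of Syt11, Rab3a, Pax6 and Crmp1 exclude 0.

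The cytoskeletal and axonal genes included the brightest signals of the list. Of these 14 genes, 6 had a higher and 8 a lower mean with VPA, and the median difference was −0.075. Groups did not overlap for 3 that were higher and 4 that were lower (21.4% and 28.6%, where represented genes gave 24.1% and 18.1%). Stmn2, a microtubule-destabilising stathmin of growing axons, read 9.46 and 9.39 in untreated and 9.52 and 9.65 in VPA cells. That placed it above 96.6% of represented genes on the arrays without drug. Its difference was 0.16 ± 0.11, within a 95% interval from −0.13 to 0.45.

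Crmp1, a cytosolic mediator of semaphorin signalling to the growth cone, had the lowest difference of the list. It read 6.96 and 6.85 on the untreated arrays and 6.56 and 6.28 on the VPA arrays. The groups did not overlap, and the VPA arrays lay further apart than the untreated ones. The difference was −0.48 ± 0.14 (unadjusted p = 0.020, adjusted p = 0.500 in limma). Tubb3, the beta tubulin used as a marker of new neurons, read 6.92 and 6.66 against 6.48 and 6.42. Here too both VPA arrays were the lower ones, at −0.34 ± 0.13 (unadjusted p = 0.051, adjusted p = 0.544 in limma).

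The 4 intermediate filament genes of the list had lower means with VPA, none past the test. Ina (alpha-internexin) differed by −0.29 ± 0.12 and Nefl (neurofilament light chain) by −0.28 ± 0.12, each with no overlap between groups. The other probe set of Ina gave −0.070 with overlapping groups. Nefm (neurofilament medium chain) differed by −0.060 and turned sign with 1 array left out. Outside the list, Nefh (neurofilament heavy chain) also had a lower mean, by −0.15 ± 0.14 with overlapping groups. Prph (peripherin), another neuronal intermediate filament gene outside the list, differed by 0.10 ± 0.11 the other way. Nes (nestin), the intermediate filament of neural progenitors, read 4.09 and 4.26 without drug and 3.64 and 4.14 with it. Its groups overlapped because VPA replicate 2 lay above untreated replicate 1, and its difference of −0.28 ± 0.20 was −0.036 without VPA replicate 1.

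The other cytoskeletal and axonal genes differed in both directions. Mapt (tau) read 5.43 and 5.41 against 5.44 and 5.46, a difference of 0.031 that became −0.025 after a second quantile normalization. Map2, a dendritic microtubule protein, read 3.81 and 3.42 against 3.54 and 3.72, with both VPA arrays between the untreated ones. Dcx, a microtubule protein of migrating neurons, read 2.84 and 2.93 against 2.96 and 2.82, a dim and overlapping signal whose sign turned when arrays were centred on their medians. Gap43, a growth cone protein, differed by 0.19 ± 0.17 (95% interval from −0.26 to 0.63), the stathmin genes Stmn3 and Stmn4 by −0.18 and 0.093, and Dpysl3, a relative of Crmp1, by −0.089. The second probe set of Stmn3 was dim and differed by 0.029.

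Among the 9 vesicle and transmitter genes, Syt11 was the one member of the whole list with group means 1.5-fold apart or more and no overlap. That is 2.50% of the 40 genes, beside 0.973% of represented genes higher and 0.266% lower by the same rule. Syt11, a synaptotagmin that does not act as a calcium sensor and is tied to membrane traffic, read 4.58 and 4.78 on the untreated arrays and 5.54 and 5.30 on the VPA arrays. The gap between the groups exceeded the gap within either. Its difference was 0.74 ± 0.14 (SE, n = 2 per group), with a 95% interval from 0.37 to 1.11, an unadjusted p of 0.0039 and an adjusted p of 0.462 in limma. By unadjusted p it ranked 120th of 19938 represented genes. The 250 bases before one RefSeq start of Syt11 (GRCm38.p6, chr3:88772600-88772849, minus strand) are shown because the gene had the largest difference. Capitals mark the 9 CG dinucleotides, most of them toward the start.
Syt11: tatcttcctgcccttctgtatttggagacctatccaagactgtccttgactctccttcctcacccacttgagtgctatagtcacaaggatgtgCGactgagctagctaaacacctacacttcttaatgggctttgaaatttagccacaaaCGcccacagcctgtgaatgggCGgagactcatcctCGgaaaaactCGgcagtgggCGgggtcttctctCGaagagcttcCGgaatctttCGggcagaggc

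Rab3a and the other vesicle genes were dimmer or nearer to 0. Rab3a, a small GTPase that docks synaptic vesicles, read 2.98 and 2.79 without drug and 3.22 and 3.23 with it. The groups did not overlap, but all 4 values lay below the 3.30 of the olfactory receptor line. Its difference was 0.34 ± 0.12 (unadjusted p = 0.036, adjusted p = 0.520 in limma). Syp (synaptophysin), a major vesicle membrane protein, read 3.62 and 3.90 against 3.75 and 3.96, with overlapping groups and a difference of 0.096 ± 0.15. Syt4 differed by 0.20 ± 0.19, Snap25, a subunit of the fusion machinery, by 0.045, and Rab3c by 0.011, all with overlapping groups. Gad1, which makes the transmitter GABA, differed by −0.26 ± 0.17, with untreated replicate 2 (4.745) and VPA replicate 1 (4.742) almost level. Syn1 (synapsin), which tethers vesicles, differed by −0.15 ± 0.10 and Syt1, the calcium sensor of fast release, by −0.035, with no overlap for either. Over the 9 genes 6 means were higher and 3 lower, with a median difference of 0.045.

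The last 6 genes cover RNA binding, adhesion and other neuronal functions. Means were higher with VPA for 5 and lower for 1, and in 4 both VPA arrays exceeded both untreated arrays (66.7%, where 24.1% of represented genes did so). Rtn1, a reticulon of the neuronal endoplasmic reticulum, read 5.36 and 5.50 without drug and 5.65 and 5.95 with it. The groups did not overlap, and the difference was 0.37 ± 0.15 (unadjusted p = 0.052, adjusted p = 0.544 in limma). The neuronal RNA-binding proteins Elavl3 and Elavl4 differed by 0.27 ± 0.14 and 0.12 ± 0.11, the second at a dim 2.63. Uchl1, a ubiquitin hydrolase abundant in neurons, was bright at 7.92 and differed by 0.19 ± 0.11. The adhesion molecule Ncam1 differed by 0.023, with a sign that turned after a second quantile normalization, and the cadherin Celsr3 by −0.020.

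The 95% intervals were set against fixed folds. For 25 of the 40 the 95% interval of the difference lay within 1.5-fold in both directions, and for 39 of 40 within 2-fold, Syt11 being the exception. The 15 intervals that reached past 1.5-fold included those of Pax6, Hes5, Neurod1, Nes, Tubb3 and Gap43. These intervals are for single genes and are not adjusted for their number.

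**Figure D3:**
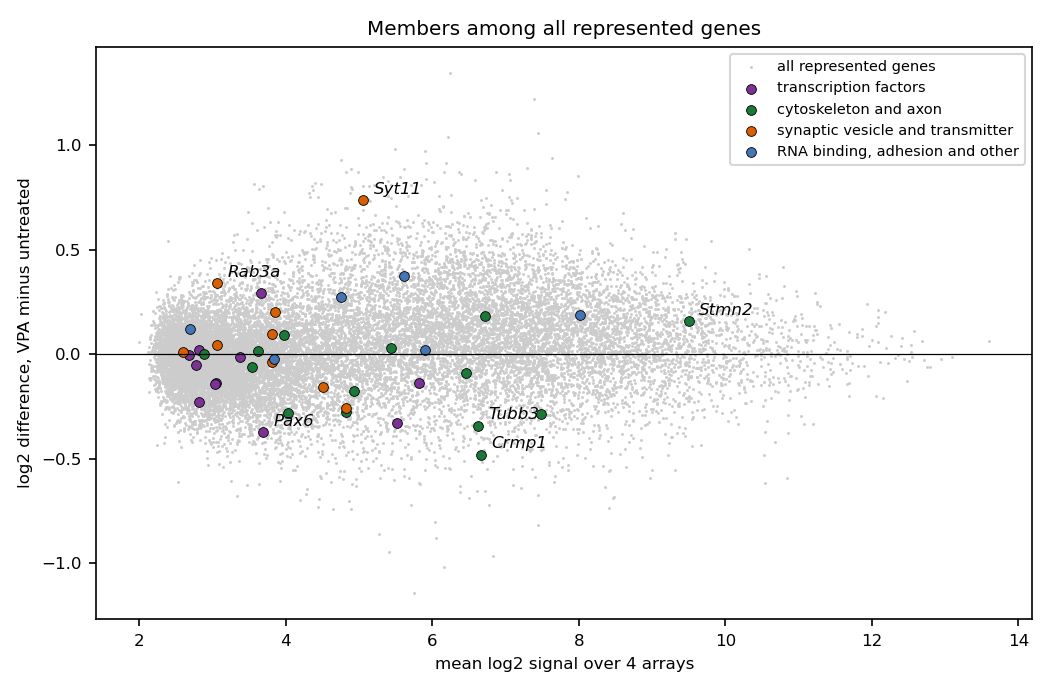
Mean log2 signal over 4 arrays (x axis) against the log2 difference, VPA minus untreated (y axis), for 19938 represented genes in grey and the 40 neural genes in colour by role. Syt11 is the highest and Crmp1 the lowest of the coloured points, while all represented genes ran from −1.14 to 1.35.

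Without regard to size, groups did not overlap for 22 of the 40 genes (55.0%), 10 higher and 12 lower, where 42.2% of represented genes did not overlap. Asked for a difference of at least 0.32 log2 units as well, 3 were higher (Syt11, Rab3a and Rtn1) and 4 lower (Pax6, Hes5, Tubb3 and Crmp1). Those are 7.5% and 10%, where represented genes gave 7.32% and 3.3%.

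Close relatives of the genes that stood out were read in the same fit. All 17 synaptotagmins had a probe set, and their median difference was −0.023. After Syt11 the highest were Syt9 at 0.23 ± 0.14 and Syt5 at 0.21 ± 0.13, and the lowest was Syt8 at −0.31 ± 0.17, so no other synaptotagmin had a mean 1.5-fold from its untreated level. In the Rab3 family Rab3d differed by 0.26 ± 0.12, next to Rab3a, and Rab3b by −0.042. In the collapsin response mediator family 3 of 5 genes had overlapping groups, with differences of −0.089 (Dpysl3), −0.064 (Dpysl4) and 0.10 (Dpysl5). Dpysl2, whose product like that of Crmp1 relays semaphorin signals, read 6.46 and 6.27 against 6.75 and 6.88, a difference of 0.46 ± 0.13 (unadjusted p = 0.016, adjusted p = 0.492 in limma), while Crmp1 was −0.48. The difference between these genes was not tested.

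Among 7 measured beta tubulins Tubb3 was lowest. Tubb1 differed by −0.22 ± 0.13 and Tubb4a by −0.24 ± 0.16. The bright Tubb5 (11.29 in untreated cells), Tubb6 and Tubb2a were within 0.05 of their untreated means, with signs that turned after a second quantile normalization, and Tubb2b differed by 0.054. In the Hes family 5 of 6 genes had a lower mean. Hes7, a segmentation clock gene, differed by −0.37 ± 0.17, Hes3 by −0.26 ± 0.13 and Hes2 by −0.18 ± 0.14. Hes1, a Notch target active in many tissues, differed by −0.067, and Hes6 by 0.014 with a sign that turned after a second quantile normalization.

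**Figure D4:**
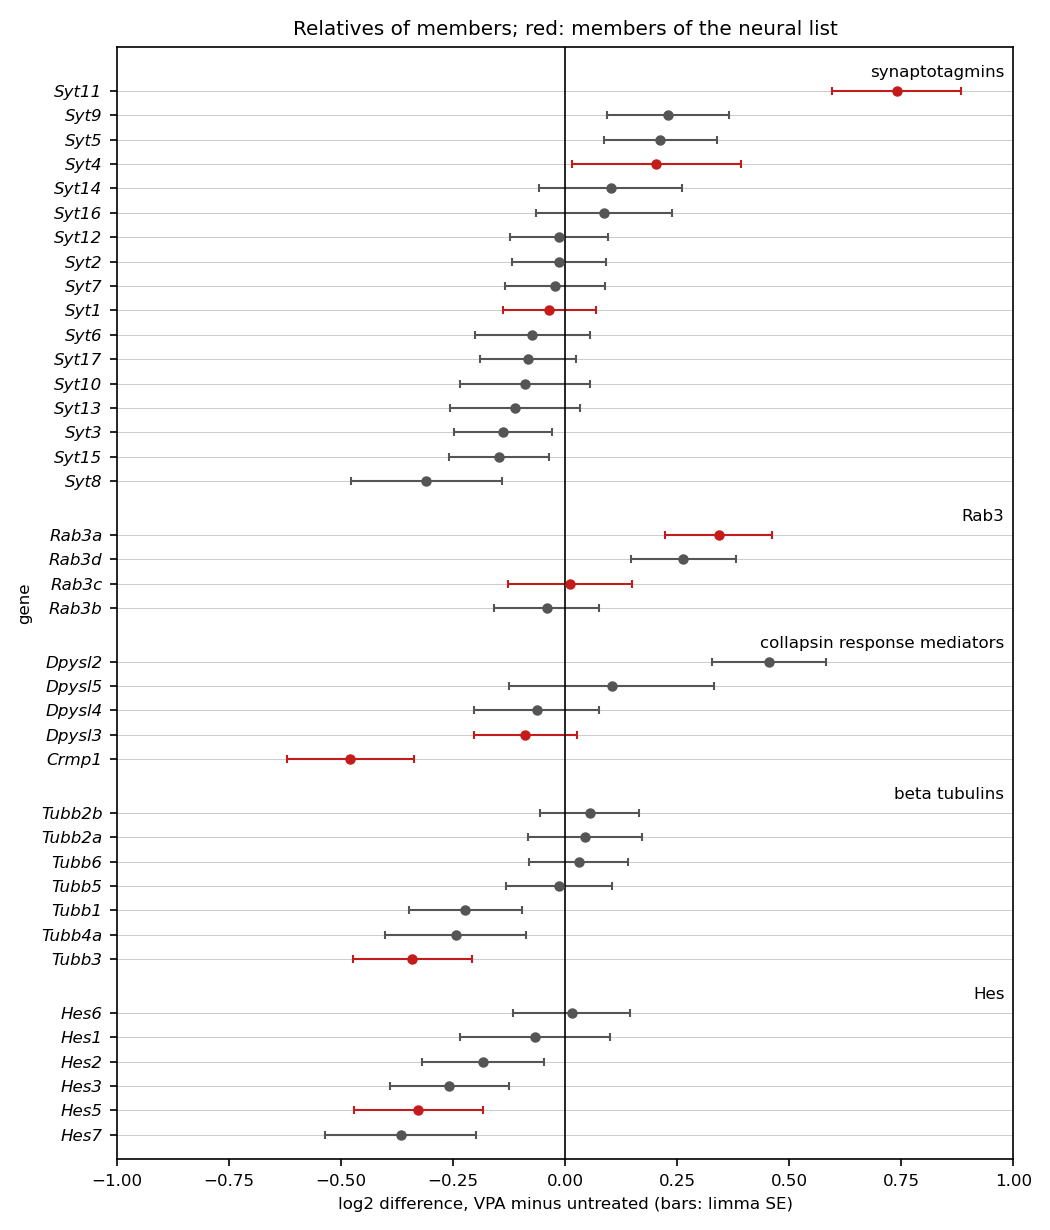
Log2 difference, VPA minus untreated, with the limma SE as bars (x axis), for the members of 5 gene families (y axis); red points belong to the neural list. Syt11 at 0.74 is apart from the 16 other synaptotagmins, and Crmp1 at −0.48 lies opposite Dpysl2 at 0.46.

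Further neural genes were listed by function, with earlier results of these data known. Of 77 names 71 had a probe set, with 0 called, and at an unadjusted p under 0.05 there were 4 higher (5.63%) and 1 lower (1.41%), where represented genes gave 5.9% and 2.71%. Their median differences were −0.029 for 23 progenitor genes, −0.015 for 23 cytoskeletal and adhesion genes and −0.018 for 25 synaptic genes. The progenitor genes of smallest p were the Notch ligand Dll1, at −0.39 ± 0.11 (unadjusted p = 0.016), Sox11 at 0.32 ± 0.16, Dlx1 at −0.27 ± 0.14 and Nkx2-2 at −0.24 ± 0.13. Dll1 read 4.46 and 4.53 on the untreated and 4.06 and 4.14 on the VPA arrays, so its groups stood clear of each other.

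The cytoskeletal and adhesion genes of smallest p were Dpysl2, the axonal motor gene Kif5c at 0.42 ± 0.13, the adhesion molecule gene L1cam at −0.29 ± 0.16 and Cntn1 at 0.18 ± 0.11. The synaptic ones were Sypl, a synaptophysin relative found in many tissues, at 0.55 ± 0.20, the vesicle glycoprotein gene Sv2a at 0.40 ± 0.15, Rab3d, and Th, the rate-limiting enzyme of catecholamine synthesis, at −0.23 ± 0.11. Each had an adjusted p of at least 0.490 in limma.

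Promoter windows of 300 bases, from 250 before to 50 after a RefSeq start in GRCm38.p6, were matched for 30 of the 40 genes. Their median number of CG dinucleotides, taking the richest window of a gene, was 23.5, against 8.0 for 27025 genes. It was 14 for Syt11 and 41 for both Crmp1 and Hes5. The left part of the RE1 element, TCAGCACC on either strand, was in the windows of 3 of the 30 genes (10%), where 1.85% of all genes held it. The right part, GGACAGC, was in 4 (Crmp1, Map2, Rtn1 and Tubb3, 13.3%, against 7.59%), and the E-box CAGCTG, a palindrome bound by proneural factors, in 8 (26.7%, against 18.3%). Both strands were searched, the right part and the E-box share CAGC and can overlap, and a match is a description of letters, not a bound site.

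The 3 windows with the left part are shown because REST recruits the enzymes that VPA inhibits. Each run has 30 bases, written along the gene's own strand, with the matched letters in capitals; in Tubb3 they read on the opposite strand. Tubb3 lies at chr8:123411421-123411450 (plus strand), Syn1 at chrX:20921131-20921160 (minus strand) and Celsr3 at chr9:108825908-108825937 (plus strand).
Tubb3: atctcggtgccGGTGCTGAtgctgcagagc
Syn1: cactgtcggatTCAGCACCgcggtcagagc
Celsr3: cccagctccgtTCAGCACCgtgggcagcac

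None of these 3 genes had a higher mean with VPA, and none passed the test. Tubb3 differed by −0.34, Syn1 by −0.15 and Celsr3 by −0.020. Celsr3 had overlapping groups, and its sign turned in runs with an array left out. Whether REST was bound at these letters, or its repression eased by VPA, was not tested. Of the genes with the right part alone, Rtn1 was 0.37 higher, Map2 differed by 0.014 and Crmp1 by −0.48. The 8 genes with the E-box ran from −0.29 (Ina) to 0.34 (Rab3a).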

How the data were processed

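RNA of E14 cells was measured on 4 one-colour arrays, 2 untreated and 2 with VPA, grouped by the treatment in the labels. The deposited log2 values were made by the authors, and the submitters' processing notes name RMA and the Affymetrix Expression Console 1.1. The genome build and the arrays normalized together are not given in the sources used here. RMA returns log2 values, and the range of the deposited values fits that scale. The number of arrays limits the precision, and other per-sample columns numbered 0.

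Gene names came from the platform annotation, where 21789 of 35556 probe sets had 1 symbol. Differences were fitted over all probe sets with limma 3.58.1 (R 4.3.3; lmFit, then eBayes at its default settings), two-sided, with Benjamini-Hochberg adjustment and a threshold of 0.05. An exact permutation test of 2 against 2 arrays cannot go below 0.333. The fit was tested on simulated data, where it called few of the 2-fold changes. Olfactory receptor genes were taken as the dim reference after the data were seen. Promoter sequences are RefSeq's for GRCm38.p6.

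The neural genes and the lists beside them were chosen with earlier results of these data known. Values on each array are given for genes with an unadjusted p under 0.05, for those without overlap at 0.32 log2 units or more, and for common markers; Dpysl2 and Dll1 were added after their values were seen. Of each further list the 4 genes of smallest p are named, and Nefh and Prph are named beside the intermediate filament genes. The labels do not say whether same-numbered arrays were prepared as pairs. Deviations of same-numbered arrays had a correlation of −0.097 over all probe sets and 0.065 over the neural list alone. So few arrays cannot decide whether they were pairs.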

Additional observations from a re-analysis of the deposited data

How the results depend on the processing

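No gene of the neural list, of the further neural lists or of the families was called under any alternative run: a second quantile normalization, median centring, the dimmer probe sets left out (24 of the 40 genes remained), trend and robust options, the replicate number as a block, the mean over the probe sets of a gene, and each array left out in turn. The smallest adjusted p over all probe sets or genes ran from 0.116 (mean over probe sets of a gene) to 0.930 (without VPA replicate 2). With the replicate block 0 of 35556 probe sets and 0 of the 40 genes were called, and 1677 probe sets were higher and 899 lower at an unadjusted p under 0.05, against 2049 and 1220 without it. Those 2 counts were 1670 and 1542 after a second quantile normalization, 1519 and 764 over the brighter probe sets alone, and between 1181 and 2524 higher and 646 and 1718 lower with 1 array left out. Genes of the list lower at that p numbered 2 as deposited, 6 after a second quantile normalization, 5 with the mean over probe sets and 1 to 5 with 1 array left out.

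The median difference of the 40 genes was −0.0083 and ran from −0.041 (without untreated replicate 1) to 0.025 (without untreated replicate 2), and its sign turned there. The count of genes at least 1.5-fold apart without overlap was 1, and 7 at 0.32 log2 units; with 1 array left out it was 1 to 2. The median of the vesicle genes was −0.032 without VPA replicate 2 and 0.15 without VPA replicate 1. Over the brighter probe sets the median of the transcription factors was −0.23, but only 2 of them remained (Sox1 and Hes5). That of the cytoskeletal genes was −0.18 there, with 11 genes remaining. Syt11, Rab3a, Rtn1, Pax6, Hes5, Tubb3 and Crmp1 kept their direction in all alternatives that measured them. Mapt was −0.025 and Ncam1 −0.045 after a second quantile normalization, and Dcx −0.0042 with centred arrays. Differences that turned sign with 1 array left out, given as their lowest and highest value, were those of Celsr3 (−0.20 and 0.16), Dcx (−0.068 and 0.069), Gap43 (−0.0051 and 0.38), Map2 (−0.18 and 0.21), Nefm (−0.16 and 0.037), Neurod4 (−0.065 and 0.061), Neurog1 (−0.054 and 0.025), Neurog3 (−0.35 and 0.066), Olig2 (−0.14 and 0.040), Rab3c (−0.095 and 0.12), Snap25 (−0.059 and 0.15), Stmn3 (−0.35 and 0.00028), Syp (−0.047 and 0.24), Syt4 (−0.019 and 0.43) and Zic1 (−0.091 and 0.14). The cause of these shifts was not tested. With 2 arrays a group, signals near the olfactory receptor line limit what could be seen for the 11 dim genes.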
